A study of Mus musculus with 6 samples.

Results

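Genes of mitochondrial and peroxisomal fatty acid oxidation were compared between whole liver of mice lacking profilin 2 (Pfn2-/-), an actin-binding protein, and wild-type liver. The 35 listed members are enzymes, carriers and transporters of the pathway with a few of its regulators, and a gene was measured through the array row that names it alone, or, where 2 such rows existed, the one with the higher mean over all arrays. This gave 34 members of 22180 measured genes, 17 of them placed in the mitochondrion, 9 in the peroxisome, 2 in both organelles and 6 elsewhere or among regulators; Acsl1 was not analysed here. The study holds 6 Affymetrix arrays of C57BL/6 liver, 3 wild type and 3 Pfn2-/-, and in each genotype replicate 1 was aged 9 months, replicate 2 8.5 months and replicate 3 8 months. The arrays are labelled as separate biological replicates, with no treatment, while the labels give neither the sex and feeding state of the mice nor the way the Pfn2 allele was made. Values are log2 expression after RMA, a background correction and normalization for Affymetrix arrays, and every difference is knockout minus wild type on that log2 scale.

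Fatty acids reach the mitochondrial matrix through the carnitine shuttle, where each turn of beta-oxidation runs through an acyl-CoA dehydrogenase, an enoyl-CoA hydratase, a hydroxyacyl-CoA dehydrogenase and a thiolase, and the electrons of the first step pass to the respiratory chain through electron transfer flavoprotein. Peroxisomes shorten very long chain, branched and dicarboxylic acids with their own oxidases, bifunctional enzymes and thiolases, and hand the shortened acyl groups on as carnitine esters. In liver the nuclear receptor PPARalpha drives many genes of both branches, most strongly in fasting.

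The arrays had medians of 4.36 to 4.41 over all rows and the correlation across rows was 0.9795 or more for every pair of arrays. All 12 hepatocyte markers were measured, at 7.73 to 13.04. The 12 measured markers of adipocytes, pancreatic acinar cells and skeletal muscle lay lower, at 2.45 to 5.72. Of these 12, 0 had an unadjusted p under 0.05 between the genotypes, beside 5.29% of all genes. The row of Pfn2 itself was dim and did not separate the genotypes (4.02, 3.85 and 4.09 in wild type and 3.88, 3.81 and 3.93 in the knockout), so it does not check the labels. In whole liver, fewer cells of a type and less RNA per cell cannot be told apart.

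No member passed a Benjamini-Hochberg adjusted p of 0.05 over all genes in limma, and neither did any other gene (0% of 22180). The member with the lowest adjusted p was Crot, at 0.621. At an unadjusted p under 0.05 there were 6 of 34 members, or 17.6%, against 5.29% of all genes: Crot and Vnn1 were higher in the knockout, where 2.67% of all genes were higher, and Abcd2, Ehhadh, Acads and Acsl5 were lower, where 2.62% were. The groups did not overlap in 5 of 34 members, or 14.7%, against 9.85% of all genes. Crot and Vnn1 lay above wild type in every knockout array, as 5.09% of all genes did, and Acads, Etfb and Acsl5 lay below it, as 4.76% did. The median difference over the members was 0.02, beside 0 over all genes, and the median absolute difference was 0.11 in both. The plot of member differences shows that most intervals include 0 and that Abcd2 stands far from the other members.

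**Figure D1:**
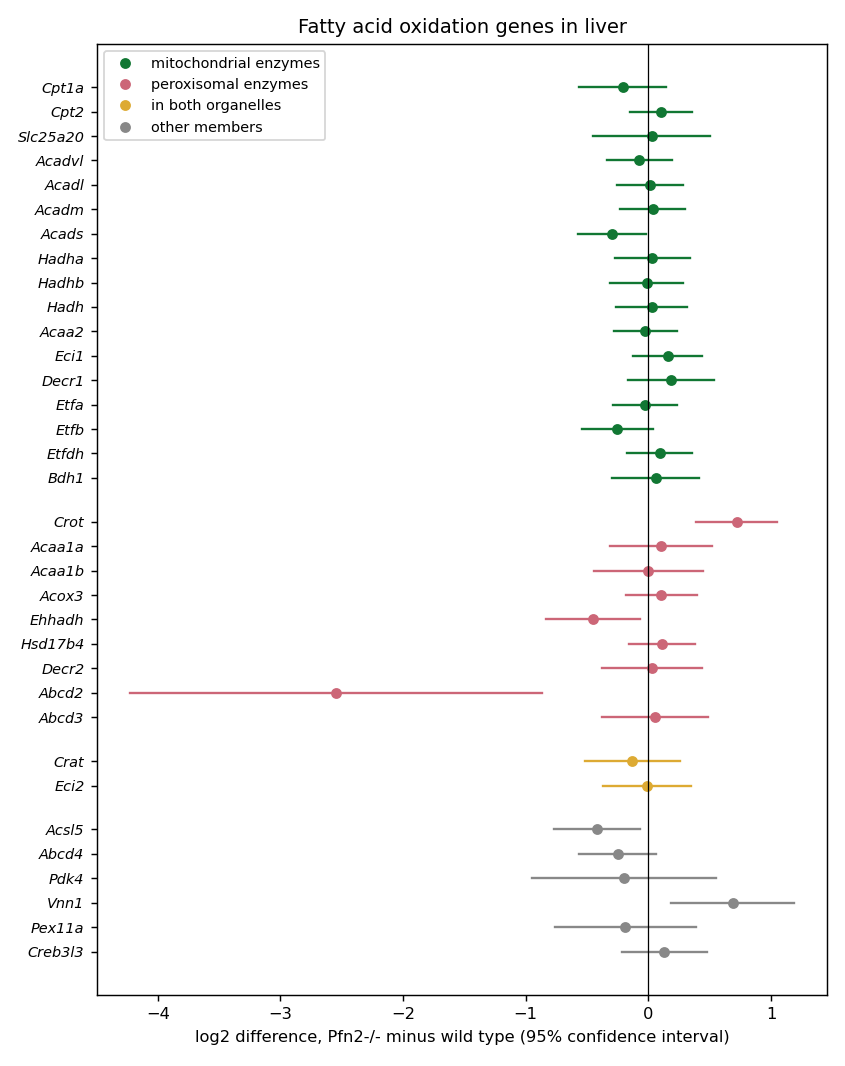
Log2 difference of each of the 34 members, knockout minus wild type (x axis), with its 95% confidence interval from limma; rows are genes, coloured by class. The 17 mitochondrial points lie between -0.30 and 0.18, while the peroxisomal points run from -2.55 for Abcd2 to 0.72 for Crot.

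Mitochondrial enzymes had nearly equal values in both genotypes. Of the 17 genes, 10 had differences above 0 and 7 below, from -0.30 for Acads to 0.18 for Decr1, with a median of 0.03. All 17 confidence intervals lay inside -0.57 to 0.54, so that differences beyond 0.6, or 1.52-fold, were outside the interval of every one of them. At an unadjusted p under 0.05 there was 1 of 17, Acads, or 5.88% against 5.29% of all genes, a share near the background.

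In the carnitine shuttle, Cpt1a, the outer membrane carnitine palmitoyltransferase that limits the entry of long-chain acyl groups, measured 10.69, 10.39 and 10.09 in the wild-type arrays and 10.18, 10.10 and 10.26 in the knockout arrays. Wild-type replicates 1 and 2 were above all knockout arrays, and wild-type replicate 3 was below them. The difference was -0.21 (SE 0.16, adjusted p = 0.956 in limma). It was -0.06 without wild-type replicate 1 and -0.36 without wild-type replicate 3, where the unadjusted p was 0.0386 and the adjusted p 0.686. Cpt2, the inner membrane transferase, differed by 0.10 (SE 0.11), with 8.51 to 8.57 in wild type and 8.57 to 8.70 in the knockout. The carrier Slc25a20, which exchanges acylcarnitine for carnitine, spanned 7.65 to 8.15 and 7.52 to 8.35 and differed by 0.03 (SE 0.21). The sequence shown for Cpt1a, the control point of this branch, is the 250 bases before its start site in RefSeq, GRCm38.p6, chr19:3323051-3323300, plus strand, written 5′ to 3′. Capitals mark TGACCT, which is AGGTCA on the other strand, the half-site to which nuclear receptors such as PPARalpha bind in pairs; it begins 94 bases before the start.
Cpt1a: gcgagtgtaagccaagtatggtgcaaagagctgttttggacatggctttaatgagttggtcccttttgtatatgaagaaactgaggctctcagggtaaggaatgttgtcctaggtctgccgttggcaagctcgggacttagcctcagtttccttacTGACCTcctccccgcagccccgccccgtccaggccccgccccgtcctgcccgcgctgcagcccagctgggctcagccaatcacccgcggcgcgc

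The acyl-CoA dehydrogenases catalyse the first step, each for another chain length. Acads, for short chains, measured 8.51, 8.56 and 8.59 in the wild-type arrays and 8.42, 8.21 and 8.14 in the knockout arrays. All 3 knockout arrays were below all 3 wild-type arrays, by 0.09 where the groups came closest. The difference was -0.30 (SE 0.12, 95% confidence interval -0.57 to -0.02, unadjusted p = 0.0382, adjusted p = 0.92 in limma), or 1.23-fold lower. Its sign held in all 16 other settings, but its unadjusted p was under 0.05 in 9 of them. Acadm, for medium chains, differed by 0.04 (SE 0.12), Acadl, for long chains, by 0.01 (SE 0.12), and Acadvl, for very long chains, by -0.07 (SE 0.12). Acadm spanned only 0.20 over all 6 arrays, at 10.41 to 10.61. The short-chain enzyme was thus the sole one of the 4 whose groups did not overlap, and whether its difference exceeds those of the other 3 was not tested.

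Hadha and Hadhb encode the subunits of the mitochondrial trifunctional protein, which carries out the later steps for long chains. Hadha measured 9.79, 9.45 and 9.78 in the wild-type arrays and 9.79, 9.60 and 9.73 in the knockout arrays. Hadhb measured 5.47, 5.69 and 5.60 in the wild-type arrays and 5.57, 5.74 and 5.41 in the knockout arrays. The groups overlapped for both genes, with differences of 0.03 (SE 0.14) and -0.01 (SE 0.13). The row of Hadhb was far dimmer, its mean at percentile 64.8 of all genes against 98.3 for Hadha, and its probe sequences were not examined. The 2 genes are transcribed away from each other, with 272 bases between their RefSeq start sites. The stretch shown is taken from this shared region because it precedes both subunit genes, the 250 bases before Hadhb, GRCm38.p6, chr5:30155003-30155252, plus strand; it holds no AGGTCA on either strand, so it has no capitals.
Hadhb: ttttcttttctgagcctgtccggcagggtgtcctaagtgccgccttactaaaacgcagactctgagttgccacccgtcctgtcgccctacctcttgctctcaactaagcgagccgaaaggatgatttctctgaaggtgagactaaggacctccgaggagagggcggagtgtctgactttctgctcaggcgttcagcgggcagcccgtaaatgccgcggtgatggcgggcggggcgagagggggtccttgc

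The remaining mitochondrial enzymes also had small differences. Hadh, the short-chain hydroxyacyl-CoA dehydrogenase, differed by 0.03 (SE 0.13) and Acaa2, the mitochondrial thiolase, by -0.03 (SE 0.11). Acaa2 had the smallest spread of all members, 0.15 over the 6 arrays. The signs of Acadl, Acadm, Hadh and Hadhb turned under other normalizations or array weights, and their differences were under 0.04. Eci1 and Decr1, which handle unsaturated fatty acids as isomerase and dienoyl-CoA reductase, differed by 0.16 (SE 0.13) and 0.18 (SE 0.16). With single arrays left out, Eci1 ran from 0.0867 without wild-type replicate 2 to 0.24 without wild-type replicate 3, and Decr1 from 0.0483 without wild-type replicate 2 to 0.29 without knockout replicate 2. Decr1 measured 7.72, 7.36 and 7.81 in the wild-type arrays and 7.90, 7.60 and 7.94 in the knockout arrays, so that knockout replicates 1 and 3 were above every wild-type array and knockout replicate 2 was not.

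Electron transfer flavoprotein takes the electrons from the acyl-CoA dehydrogenases. Its beta subunit gene Etfb measured 8.21, 8.51 and 8.37 in the wild-type arrays and 8.19, 7.99 and 8.15 in the knockout arrays. The groups did not overlap, by 0.02 at the closest, and the difference was -0.25 (SE 0.13, unadjusted p = 0.0802, adjusted p = 0.942 in limma). The alpha subunit gene Etfa differed by -0.03 (SE 0.12) with overlapping groups, and Etfdh, the dehydrogenase that passes the electrons to ubiquinone, by 0.09 (SE 0.12). Bdh1, which makes the ketone body beta-hydroxybutyrate from acetoacetate, spanned 6.96 to 7.14 in wild type and 6.82 to 7.40 in the knockout and differed by 0.06 (SE 0.16).

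The peroxisomal members held both the highest and the lowest difference among the 34 members. Of the 9 genes, 3 had an unadjusted p under 0.05, Crot higher and Abcd2 and Ehhadh lower, beside 2.67% of all genes higher and 2.62% lower. The other 6, including the oxidase Acox3 and the thiolases, differed by 0.11 or less in either direction. The median over the 9 was 0.05 and the mean -0.21.

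Crot, the carnitine octanoyltransferase that turns chain-shortened acyl groups into carnitine esters for export to mitochondria, measured 10.08, 10.21 and 9.79 in the wild-type arrays and 10.85, 10.57 and 10.82 in the knockout arrays. Every knockout array was above every wild-type array, by 0.36 where they came closest. The difference was 0.72 (SE 0.15, 95% confidence interval 0.39 to 1.05), or 1.65-fold higher, with an unadjusted p of 7e-04 and an adjusted p of 0.621 in limma. The unadjusted p stayed under 0.05 in all 16 other settings, where the difference was 0.60 to 0.81 and the adjusted p 0.273 to 0.999.

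Abcd2, an ATP-binding cassette transporter that carries very long chain acyl-CoA into peroxisomes, measured 8.54, 9.03 and 6.98 in the wild-type arrays and 4.49, 7.58 and 4.84 in the knockout arrays. Knockout replicates 1 and 3 were far below all wild-type arrays and close to the array medians, while knockout replicate 2 was above wild-type replicate 3, so the groups overlapped. The difference was -2.55 (SE 0.75, 95% confidence interval -4.22 to -0.87, unadjusted p = 0.00711, adjusted p = 0.791 in limma). Its size hangs on single arrays, with -3.52 without knockout replicate 2 (adjusted p = 0.14) and -1.97 without knockout replicate 1 (adjusted p = 0.996). With robust eBayes, which lowers the weight of unusually variable genes in the pooled variance, its unadjusted p was 0.0626. The same 2 knockout arrays had high acute-phase genes. The mean of the 5 measured genes of that list was 8.30 in knockout replicate 1 and 9.01 in knockout replicate 3, against 6.14 in knockout replicate 2 and 6.16 to 6.29 in wild type. All 5 had differences above 0, and 3 had an unadjusted p under 0.05 in limma, or 60% against 5.29% of all genes. The groups did not overlap in 1 of the 5, Saa3, at 6.69 in knockout replicate 2 and 6.07 to 6.16 in wild type. Crot and Vnn1 were also furthest from wild type in knockout replicates 1 and 3. Acads and Acsl5 instead had knockout replicate 2 between knockout replicates 1 and 3, and Ehhadh was lowest in knockout replicates 1 and 2. The part of this state in the values of Abcd2, Crot and Vnn1 was not tested. The 5 inducible heat shock genes averaged 6.83 in knockout replicate 3 and 5.38 to 5.77 in the other arrays.

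Ehhadh, the peroxisomal bifunctional enzyme that joins hydratase and dehydrogenase, measured 8.89, 8.86 and 9.29 in the wild-type arrays and 8.42, 8.41 and 8.86 in the knockout arrays. Knockout replicates 1 and 2 were below all wild-type arrays, and knockout replicate 3 equalled the lowest of them. The difference was -0.45 (SE 0.17, 95% confidence interval -0.83 to -0.07, unadjusted p = 0.0255, adjusted p = 0.915 in limma), or 1.37-fold lower. Without wild-type replicate 3, the highest array, it was -0.31, and its unadjusted p was not under 0.05 there or without knockout replicate 1 or 2. The unadjusted p was under 0.05 in 13 of 16 other settings and at most 0.1 over all of them. Hsd17b4, the other bifunctional enzyme, which also handles branched chains and bile acid precursors, differed by 0.11 (SE 0.12), with overlapping groups at 10.02 to 10.17 and 10.11 to 10.31. Crot and Ehhadh are shown as the peroxisomal genes of lowest p in either direction for which RefSeq gave a region before the start, each 250 bases, GRCm38.p6, minus strand, written 5′ to 3′. Crot is at chr5:8997147-8997396 and Ehhadh at chr16:21787835-21788084. Neither holds AGGTCA on either strand.
Crot: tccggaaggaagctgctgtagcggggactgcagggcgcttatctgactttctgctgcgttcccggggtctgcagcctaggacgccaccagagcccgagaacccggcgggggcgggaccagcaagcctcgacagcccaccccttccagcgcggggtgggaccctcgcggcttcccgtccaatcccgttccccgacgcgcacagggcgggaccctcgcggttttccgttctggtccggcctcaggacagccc
Ehhadh: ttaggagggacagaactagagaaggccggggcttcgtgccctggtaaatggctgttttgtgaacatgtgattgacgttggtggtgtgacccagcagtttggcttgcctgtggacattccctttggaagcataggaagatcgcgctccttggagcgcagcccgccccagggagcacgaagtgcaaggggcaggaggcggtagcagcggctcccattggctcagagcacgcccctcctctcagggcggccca

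The thiolase genes Acaa1a and Acaa1b, close paralogs whose rows are reported as uncertain because the probe sequences were not examined, differed by 0.10 (SE 0.18) and 0.00 (SE 0.20). Acaa1b measured 8.44, 8.13 and 8.91 in the wild-type arrays and 8.64, 8.26 and 8.58 in the knockout arrays, so its wild-type arrays enclosed the knockout arrays. Acox3, an oxidase of branched-chain substrates, differed by 0.11 (SE 0.13), and Decr2, the peroxisomal dienoyl-CoA reductase, by 0.03 (SE 0.18). Abcd3, the abundant peroxisomal membrane transporter of the same family as Abcd2, measured 10.55, 10.38 and 11.11 in the wild-type arrays and 10.78, 10.52 and 10.90 in the knockout arrays. Its difference was 0.05 (SE 0.19, 95% confidence interval -0.38 to 0.49), an interval that does not reach the -0.87 at which that of Abcd2 ends; the difference between the 2 genes was not tested.

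**Figure D2:**
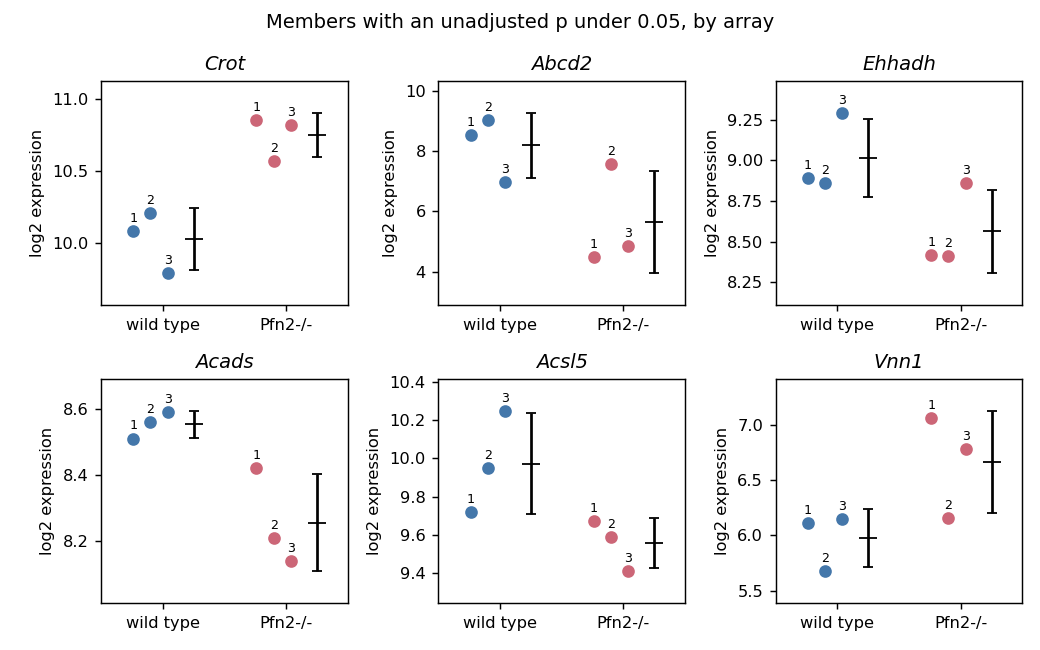
Log2 expression (y axis, own scale per panel) of the 6 members with an unadjusted p under 0.05 in the 3 wild-type (blue) and 3 Pfn2-/- arrays (red), numbered by replicate, with the mean and SD in black. The genotypes do not overlap in Crot, Acads, Acsl5 and Vnn1, touch in Ehhadh at 8.86 and overlap in Abcd2.

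Crat and Eci2 encode enzymes found in both organelles. Crat, which forms carnitine esters of short acyl groups, spanned 6.99 to 7.55 in wild type and 6.92 to 7.26 in the knockout and differed by -0.13 (SE 0.17). A second, dimmer row of Crat differed by 0.06. Eci2, an enoyl-CoA isomerase, differed by -0.01 (SE 0.16).

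Among the members outside the oxidation enzymes, Vnn1, a pantetheinase that frees the coenzyme A precursor pantothenate and a known PPARalpha target, measured 6.11, 5.68 and 6.15 in the wild-type arrays and 7.06, 6.16 and 6.78 in the knockout arrays. The groups did not overlap, although knockout replicate 2 exceeded wild-type replicate 3 by only 0.01. Knockout replicates 1 and 3, where acute-phase genes were high, had the highest Vnn1 values, and the part of that state was not tested. The difference was 0.69 (SE 0.22, 95% confidence interval 0.18 to 1.19), or 1.61-fold higher, with an unadjusted p of 0.0126 and an adjusted p of 0.859 in limma. It was 0.49 without knockout replicate 1 and 0.94 without knockout replicate 2. Its unadjusted p was under 0.05 in 14 of 16 other settings, but not without knockout replicate 1 or wild-type replicate 2, with a highest p of 0.0581. Acsl5, an acyl-CoA synthetase that activates fatty acids, measured 9.72, 9.95 and 10.25 in the wild-type arrays and 9.67, 9.59 and 9.41 in the knockout arrays. All knockout arrays were lower, by 0.05 at the closest, and the difference was -0.42 (SE 0.16, unadjusted p = 0.024, adjusted p = 0.915 in limma). Without wild-type replicate 3, the highest array, it was -0.28. Its unadjusted p was under 0.05 in 13 of 16 other settings, but not with array weights or without wild-type replicate 3 or knockout replicate 3, with a highest p of 0.0966.

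Pdk4, the kinase that shuts off pyruvate dehydrogenase when fatty acids are burned, measured 5.99, 5.76 and 7.11 in the wild-type arrays and 5.84, 5.80 and 6.62 in the knockout arrays. Replicate 3 was the highest array in either genotype, and the difference of -0.20 (SE 0.34) became 0.21 without wild-type replicate 3. Pex11a, a membrane protein of peroxisome division, spanned 7.50 to 7.73 in wild type and the wider 6.85 to 8.08 in the knockout, and differed by -0.19 (SE 0.26). Without knockout replicate 3 that difference was -0.51, with an unadjusted p of 0.0189 and an adjusted p of 0.794 in limma. Without knockout replicate 2 it was 0.10. Creb3l3, a membrane-bound transcription factor that acts with PPARalpha in fasting, differed by 0.13 (SE 0.16), and Abcd4, a family member that serves vitamin B12 export from lysosomes, by -0.25 (SE 0.14). Without knockout replicate 3 the difference of Abcd4 was -0.36, with an unadjusted p of 0.0333 in limma. Its adjusted p was 0.752 or more in every setting.

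The contrast of the branches was read from the mean over each class per array, after each gene was centred on its own mean over the 6 arrays. The mitochondrial mean was 0.02, -0.03 and 0.03 in wild type and 0.06, -0.08 and 0.01 in the knockout. The peroxisomal mean was 0.13, 0.05 and 0.13 in wild type and -0.15, -0.05 and -0.11 in the knockout, lower in all 3 knockout arrays. Mitochondrial minus peroxisomal was thus -0.11, -0.08 and -0.10 in wild type and 0.21, -0.04 and 0.12 in the knockout, higher in every knockout array, with means of -0.10 ± 0.02 (SD, n = 3) and 0.10 ± 0.13.

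That contrast rested on 1 gene. The difference of 0.20 between the genotypes turned to -0.095 without Abcd2, a setting chosen after seeing the data, and the groups then overlapped, at 0.07, 0.18 and -0.11 in wild type and -0.07, 0.05 and -0.12 in the knockout. Without Abcd2 it ran from -0.0286 without wild-type replicate 2 to -0.17 without wild-type replicate 3. Leaving out both transporters gave -0.0995, and taking the median over genes per array in place of the mean gave -0.083. Without Abcd2 and Crot the contrast was -0.0043, so the 7 remaining peroxisomal genes and the 17 mitochondrial genes had nearly the same mean difference, -0.0057 and -0.01. The plot of class means shows the change of sign in its last columns.

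**Figure D3:**
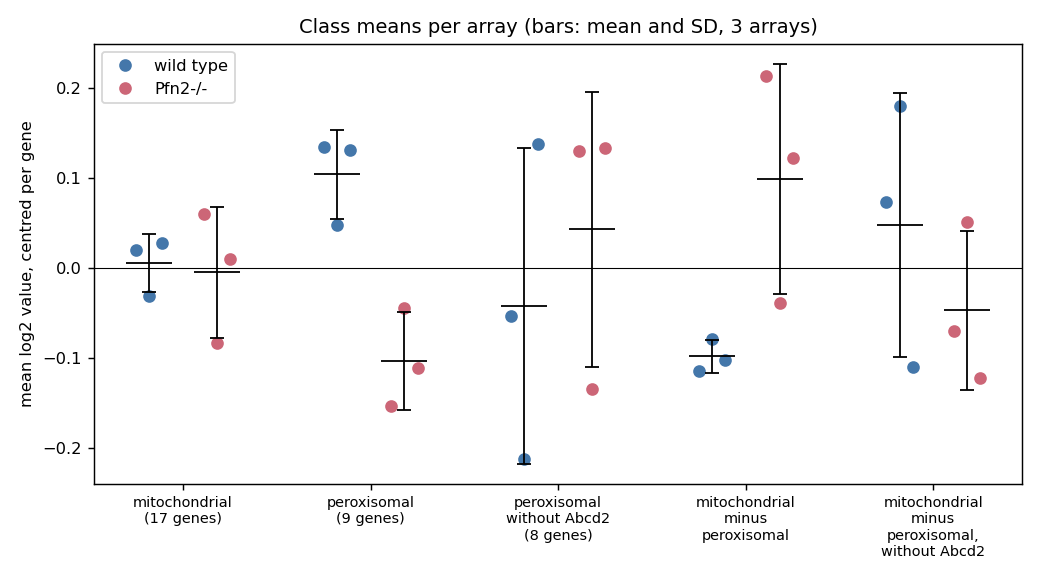
Mean log2 value per array, each gene centred on its mean over the 6 arrays (y axis), for the classes and for their difference (x axis), in wild-type (blue) and Pfn2-/- arrays (red); bars are the mean and SD of 3 arrays. Mitochondrial minus peroxisomal separates the genotypes with Abcd2, at -0.11 to -0.08 against -0.04 to 0.21, and overlaps without it.

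The highest and lowest values of the members were uneven over the arrays. Of the 34 members, 11 had their lowest value in wild-type replicate 2 and 10 in knockout replicate 2, the animals aged 8.5 months, or 32.4% and 29.4% against 17.8% and 18.3% of all genes. Knockout replicate 1 held the highest value of 10 members, or 29.4% against 15.9% of all genes, and knockout replicate 2 that of 1 member, or 2.94% against 17%. Of 28 measured markers of Kupffer, endothelial, stellate and cholangiocyte cells, 2 had an unadjusted p under 0.05 between the genotypes, beside 5.29% of all genes. They were the stellate marker Col3a1, at -0.30, and the cholangiocyte marker Sox9, at 0.58. The 8 Kupffer cell markers averaged 7.87 in wild-type replicate 2 and 7.17 to 7.44 in the other arrays, and the 7 endothelial markers averaged 8.14 there and 7.65 to 7.98 elsewhere. In knockout replicate 2 they averaged 7.44 and 7.90, and the part of these cells in the members' values was not tested. Without Abcd2 and Crot, the peroxisomal mean was -0.22 in wild-type replicate 2 and -0.18 in knockout replicate 2, below the -0.02 to 0.24 of the other 4 arrays. Age and replicate number share 1 label, so they cannot be told apart.

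**Figure D4:**
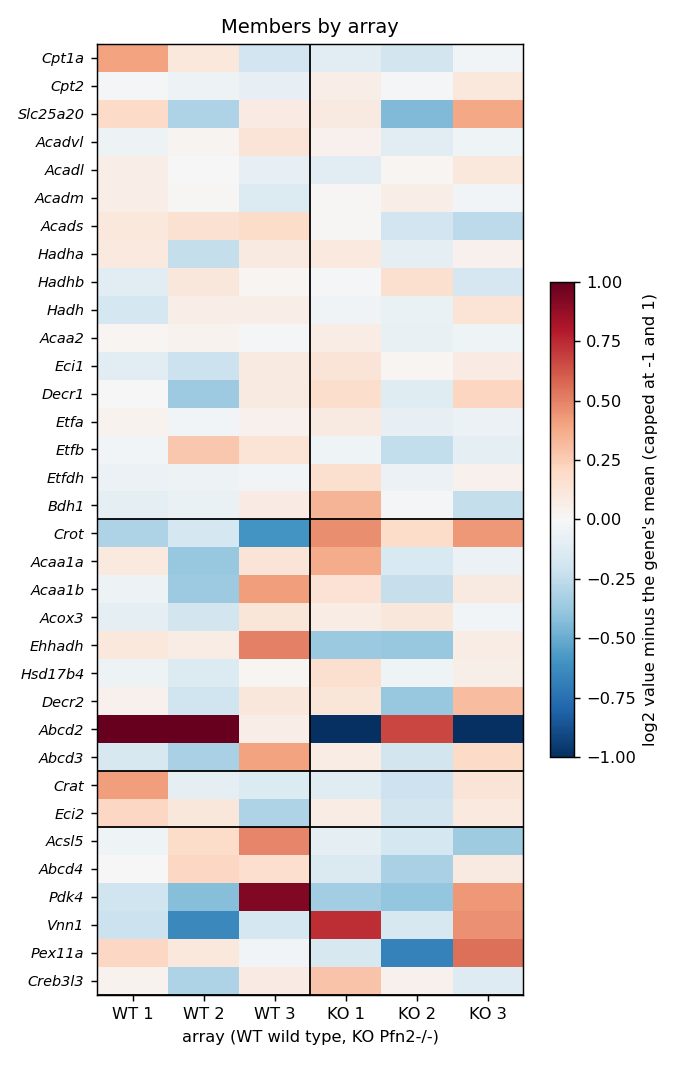
Log2 value minus the gene's mean over the 6 arrays (colour, capped at -1 and 1) for the 34 members (rows, grouped by class) in the 6 arrays (columns, WT wild type, KO Pfn2-/-). Crot changes colour between the genotypes, Abcd2 is pale in WT 3 and red in KO 2, and replicate 2 is blue in many rows of either genotype.

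The other genes of the pathway were read from 3 lists, with Mlycd, malonyl-CoA decarboxylase, in both organelle lists. None of the 85 measured of 100 listed genes passed the adjusted threshold, and 11, or 12.9%, had an unadjusted p under 0.05, 3 higher and 8 lower, against 5.29% of all genes. Their median difference was -0.03.

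Of 25 further genes listed as mitochondrial, 1 was at an unadjusted p under 0.05, or 4% against 5.29% of all genes. Where the protein of each acts was not examined. It was the pyruvate dehydrogenase kinase gene Pdk3, which was dim and differed by -0.38. Acacb, the mitochondrial acetyl-CoA carboxylase whose product malonyl-CoA inhibits Cpt1a, measured 6.84, 6.98 and 8.87 in the wild-type arrays and 6.95, 6.25 and 6.46 in the knockout arrays. Its difference of -1.01 (SE 0.45, adjusted p = 0.92 in limma) stood beside a wild-type replicate 3, at 8.87, that lay above the other 5 arrays. Cpt1c, near the array medians at 4.41 to 4.73, differed by -0.16, with all knockout arrays lower, as in 4.76% of all genes. Acad11 also differed by -0.16, with overlapping groups.

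Of 32 further genes listed as peroxisomal, 4 were at an unadjusted p under 0.05, 3 lower and 1 higher. That was 12.5% against 5.29% of all genes, and the median was 0.02. Where the protein of each acts was not examined here either. The acyl-CoA thioesterase Acot3 measured 7.24, 6.48 and 6.99 in the wild-type arrays and 5.27, 5.42 and 5.50 in the knockout arrays, and differed by -1.51 (SE 0.19, adjusted p = 0.094 in limma). Its paralog Acot4 differed by -0.90 (SE 0.16, adjusted p = 0.483), and these paralogs are uncertain in the same way. The coenzyme A diphosphatases Nudt7 and Nudt19 pointed in opposite directions. Nudt7 measured 8.93, 8.86 and 9.91 in the wild-type arrays and 10.09, 10.25 and 9.53 in the knockout arrays, with a difference of 0.72 (SE 0.28) with overlapping groups. Nudt19 differed by -0.26 (SE 0.12), with all knockout arrays lower.

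Among 29 measured genes of PPARalpha, its partners and its liver targets, 2 were higher and 4 lower at an unadjusted p under 0.05, or 20.7% against 5.29% of all genes, with a median of -0.04. The 2 higher genes fall outside the rule for named genes and were chosen after their values were seen, Pparg, a related nuclear receptor, at 0.49 (SE 0.20) and Cidec, a lipid droplet protein, at 0.56 (SE 0.25), both with overlapping groups. Ppara itself differed by 0.04 (SE 0.17). Ppargc1a, a coactivator that raises oxidation in fasting, measured 7.58, 7.62 and 6.81 in the wild-type arrays and 6.58, 7.13 and 6.33 in the knockout arrays, and differed by -0.66 (SE 0.25, adjusted p = 0.915 in limma). Plin5, a lipid droplet protein at contacts with mitochondria, differed by -0.82 (SE 0.32), with overlapping groups. Acsl4 differed by -0.44 (SE 0.15) and Acot1 by -0.48 (SE 0.18), both with all knockout arrays lower, as in 4.76% of all genes. Acot1 is a paralog of Acot3 and Acot4, and its row is uncertain in the same way. Cyp4a14, a fatty acid omega-hydroxylase and strong PPARalpha target, measured 9.87, 9.68 and 9.13 in the wild-type arrays and 7.39, 8.77 and 9.61 in the knockout arrays. Knockout replicate 3 was within the wild-type range, and the difference was -0.97 (SE 0.45). Of these 29 genes, 14 had a difference above 0 and 15 below it. Among the members, Vnn1 and Crot were above 0 and Ehhadh below it, while 24 of the 34 differed by less than 0.2 in either direction. A shared effect of PPARalpha on these genes was not tested.

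**Figure D5:**
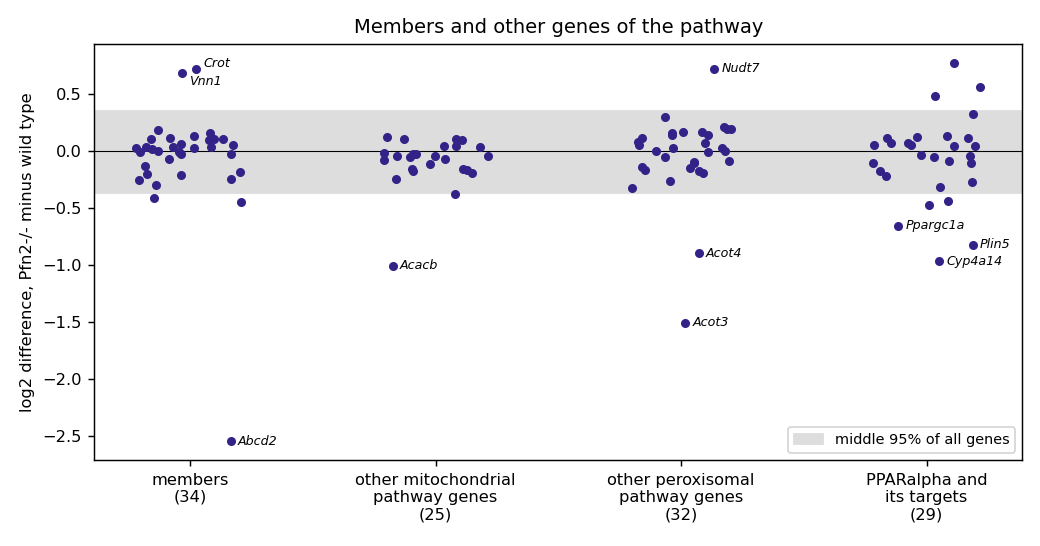
Log2 difference, knockout minus wild type (y axis), of the 34 members and of the measured genes of 3 further lists (x axis, number of genes in brackets); 1 point is 1 gene, spread sideways at random, and the grey band holds the middle 95% of all 22180 genes, -0.37 to 0.35. Most points lie in the band, with Abcd2, Acot3, Acacb, Cyp4a14 and Acot4 lowest.

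RefSeq regions of 300 bases, from 250 before to 50 after a start, were found for 27 of the 34 members, with 30 regions in all. The paired element that PPARalpha binds with its partner RXR, AGGTCA followed by any 1 base and a second AGGTCA, searched on both strands, was in 0 of the 30 and in 0.0396% of all 32851 regions of that length. A looser form, with AGGNCA in place of each AGGTCA, was in 0 and in 0.381%. The single half-site AGGTCA, which both paired forms can contain, was in 4 regions, or 13.3%, those of Cpt1a, Acadm, Acadvl and Creb3l3, and in 16.3% of all regions. A missing match says only that these letters are not in these windows. The members' regions had a median GC content of 60.5%, against 52.7% for all regions, and those of mitochondrial and peroxisomal members had medians of 60.5% and 62.5%.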

How the data were processed

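Affymetrix arrays of total RNA from liver were deposited by the authors as log2 expression, with 2 decimals. Per the submitters' processing notes the authors used RMA and limma; those notes state no versions. RMA normalizes arrays to each other, which removes shifts shared by all genes and compresses the differences of dim rows. Of 34390 rows, 23521 named exactly 1 gene in the platform annotation, and per gene the row of highest mean over the 6 arrays was used, for 22180 genes. No filter on dim genes was applied, so all 34 members were tested.

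Differences were tested in limma 3.58.1 (R 4.3.3), a two-sided moderated test with no covariate besides genotype (lmFit, eBayes), with Benjamini-Hochberg adjustment over all genes. The fit was checked on simulated data with independent noise in every gene and array. Those data had no effect shared by many genes of an array, so the check does not cover such effects. The members, their classes and the gene lists were chosen with earlier results of these data known, so no list was tested. All members are named; of the other pathway genes, the 4 of smallest p per list, those with groups that do not overlap and a difference of 0.5 or more, and central enzymes. Listed symbols known to RefSeq only as a synonym took its symbol. Alternatives were other normalizations, filters on dim genes, the mean over a gene's rows, variance models, array weights, a replicate block, other class memberships and each array left out. The number of arrays limits the precision.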

Additional observations from a re-analysis of the deposited data

How the results depend on the processing

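Of the 34 members, 0 passed the adjusted threshold in any of 16 other settings, and 17 kept their sign in all of them. Over all genes, the count past the adjusted threshold was 2 with array weights, 7 with the replicate number as a block and 0 to 6 when single arrays were left out. At an unadjusted p under 0.05 the count was 1174 in the reported fit, 1601 with array weights and 892 to 1560 without single arrays. With the filter at the median it was 682, of fewer genes tested, so that count cannot be set beside the others. Members lower at an unadjusted p under 0.05 numbered 2 with array weights and 2 to 4 without single arrays, and members higher 1 to 2; members whose groups do not overlap numbered 6 to 11, or 17.6% to 32.4%, with 3 against 2 arrays, where 17.5% to 22.2% of all genes did not overlap. The peroxisomal median was 0.124 with array weights and -0.0617 to 0.19 without single arrays. Mitochondrial minus peroxisomal was -0.0995 without both transporters, -0.0828 with the median per array and, chosen after seeing the data, -0.095 without Abcd2 and -0.0043 without Abcd2 and Crot. It was 0.14 to 0.27 without single arrays.

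Signs turned with quantile normalization again for Acadl (-0.0044), Acadm (-0.0039) and Hadhb (0.0258), with cyclic loess for Hadh (-0.0014) and Hadhb (0.0156), and with array weights for Acadl (-0.0291) and Hadhb (0.0034). Without single arrays they turned too, over ranges of -0.16 to 0.25 for Slc25a20, -0.0367 to 0.0683 for Acadl, -0.0217 to 0.0783 for Acadm, -0.0783 to 0.0917 for Hadha, -0.0967 to 0.0683 for Hadhb, -0.0533 to 0.0667 for Hadh, -0.0717 to 0.0033 for Acaa2, -0.0833 to 0.0017 for Etfa and -0.095 to 0.20 for Bdh1. The ranges were -0.0617 to 0.20 for Acaa1a, -0.11 to 0.23 for Decr2, -0.0967 to 0.27 for Abcd3, -0.23 to 0.0483 for Crat, -0.17 to 0.09 for Eci2, -0.47 to 0.21 for Pdk4 and -0.51 to 0.10 for Pex11a. Acaa1b, at 0.00 in the reported fit, had no sign to keep or turn, and ran from -0.18 to 0.21 without single arrays. Leaving out an array uses fewer samples, and otherwise the cause was not tested.

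Same-numbered arrays share a number and an age. Their deviations from the group means correlated across all genes at -0.08, 0.15 and 0.02 for replicates 1, 2 and 3. Knockout arrays of another number reached 0.046, -0.044 and 0.18 with wild-type replicates 1, 2 and 3. Only for wild-type replicate 2 was the same-numbered array thus the highest. The reported fit does not pair the arrays. Many members had their lowest values in replicate 2 of either genotype, and a pairing for these genes alone was not tested. With the replicate block the adjusted p of Abcd2 was 0.226 and that of Crot 0.547.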
